A study of Homo sapiens with 6 samples.

Results

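The genes described here carry out classical non-homologous end joining, or stand with 53BP1 at the choice of repair route. They are PRKDC, XRCC4, XRCC5, XRCC6, LIG4, NHEJ1, DCLRE1C, TP53BP1 and RIF1, chosen by name from a table of 30560 genes, and 9 of 9 had a row. RNA sequencing was done on HCT116, an established colorectal carcinoma line labelled wild type. The control group is 3 libraries of cells given DMSO, and the treated group is 3 libraries of cells given irinotecan (CPT-11) at 10 µM for 48 hours. The cells were a single line grown without other cell types, and the labels name no clone. The p-values measure the spread between these libraries, which may be technical, since separate cultures are not mentioned.

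Irinotecan is a camptothecin prodrug whose active metabolite traps topoisomerase I on DNA, and replication forks that meet the trapped enzyme leave broken ends. In classical end joining the Ku ring, made of XRCC6 (Ku70) and XRCC5 (Ku80), slides onto a broken end and recruits DNA-PKcs, the kinase encoded by PRKDC. Artemis, encoded by DCLRE1C, trims ends that cannot be joined, and DNA ligase IV (LIG4) seals them with its scaffold XRCC4 and the XRCC4-like factor XLF, encoded by NHEJ1. 53BP1 (TP53BP1) binds damaged chromatin and, through RIF1 and the shieldin complex, restrains the resection that commits an end to homologous recombination.

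The libraries held 15398464 to 18031195 reads on genes, and libraries numbered 1 stood apart in both groups. Compared gene by gene, a chi-square divided by its degrees of freedom was 12.7 and 12.2 between control 1 and the other controls against 4.11 between those, and 8.81 and 11.9 for CPT-11 sample 1 against 3.33. Each count of the 9 genes below was therefore also made without these libraries. The mitochondrial chromosome supplied 7.24% ± 0.34 of control reads and 10.3% ± 0.62 of treated reads (SD, n = 3 each). The 8 epithelial markers, such as EPCAM and KRT8, were present at a summed 3516 to 4054 CPM (counts per 1e6 reads on genes) in controls and 6550 to 7451 CPM after CPT-11. In the test described below 4 of the 8 rose and 4 did not pass, where 24.3% of all tested genes rose. EPCAM did not pass, with a mean of 234 CPM in controls and 232 CPM after CPT-11, while KRT8 rose from 1707 to 3344 CPM. Of 7 leukocyte markers 5 had a row, at a summed 0.499 to 0.829 CPM over the 6 libraries; PTPRC, the common leukocyte antigen, had at most 4 reads in any library. Of 6 fibroblast markers 4 had a row, at a summed 31.997 to 38.98 CPM in controls and 57.1 to 79.0 CPM after CPT-11. COL1A1 made up nearly all of that, while PDGFRB, COL3A1 and LUM had at most 19, 6 and 2 reads in any library. Group totals, control then CPT-11, were 14 and 42 reads for PDGFRB, 2 and 12 for COL3A1, and 2 and 0 for LUM. These low counts kept them out of the test described below. The 4 endothelial markers summed to 1.23 to 2.05 CPM. The lymphoid recombinase gene RAG1 had a mean of 2.64 CPM, and RAG2 had at most 2 reads in any library.

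After CPT-11 the transcripts of most of the end-joining machinery were lower. XRCC6, XRCC5, PRKDC, DCLRE1C, XRCC4 and RIF1 fell, by 1.44-fold (DCLRE1C) to 2.63-fold (XRCC4). LIG4 rose 1.55-fold. TP53BP1 did not pass the test, and NHEJ1 had too few reads to be tested. The test was limma on log2(normalized count + 1), with genes called at a Benjamini-Hochberg adjusted p below 0.05 over 16239 tested genes. Thus 6 of 8 tested members fell and 1 rose, where 25.1% of all tested genes fell, 24.3% rose and 49.4% did either. The median log2 fold change was -0.65 over the 8 tested members and 0.01 over all tested genes. The counts of 6 and 1 were the same without the libraries numbered 1 and when libraries were scaled without mitochondrial genes. These are changes in each gene's share of cellular RNA. Fewer cells that express a gene and less of its RNA per cell cannot be told apart in bulk samples. The part of the mitochondrial share and of the marker genes in these results was not tested.

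**Figure D1:**
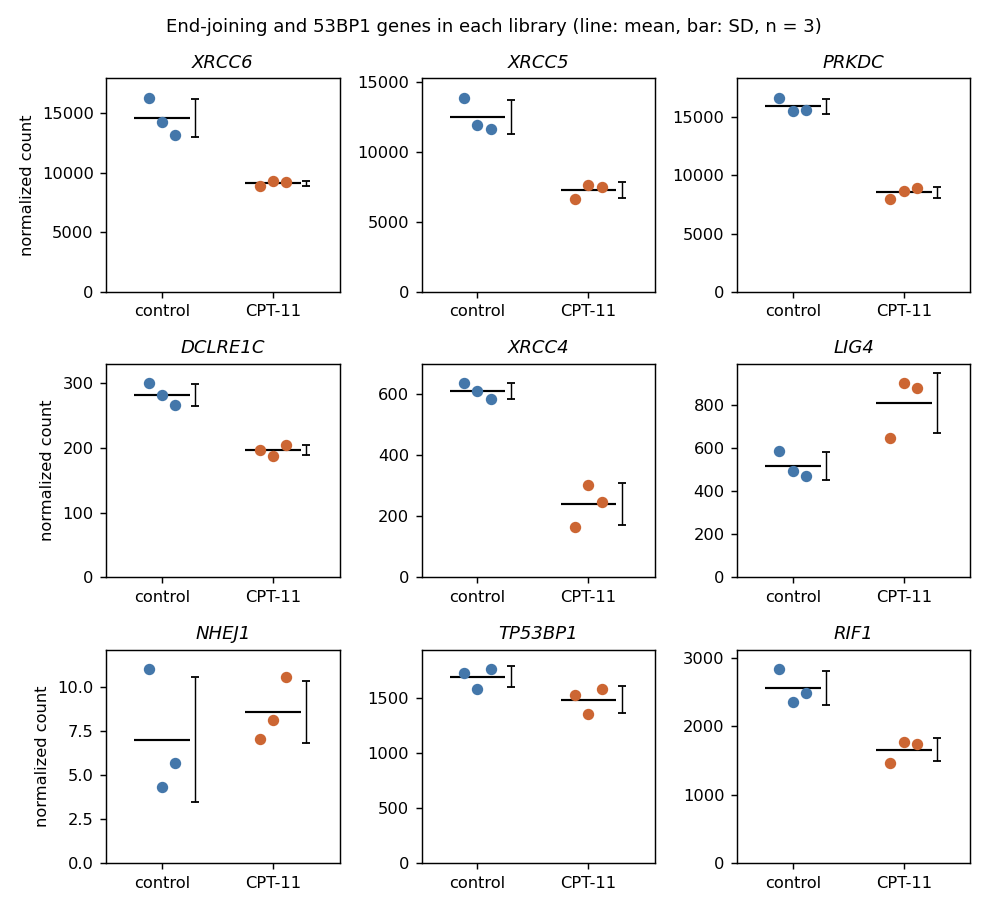
Normalized counts (reads scaled by library, linear axes from 0) of the 9 genes in each of 3 control (blue) and 3 CPT-11 (orange) libraries; lines are means and bars SD. The groups are apart in every gene but NHEJ1, as they are in 56.6% of all tested genes. LIG4 is higher and the other 7 are lower after CPT-11, TP53BP1 without passing the test.

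Promoter windows are shown for XRCC4 and LIG4, partners in the ligation complex that moved in opposite directions, and for XRCC6 and DCLRE1C, which fell. Each is the 250 bases before a RefSeq start on GRCh38.p14, on the strand of the gene. RefSeq windows were examined for 7 of 9 genes, and those of the remaining members were not examined. Capitals mark matches, on either strand, to the E2F core in any of its spellings, which here were TTCCCGC at first, then TTGGCGC as well as TTCGCGC and finally also TTGCCGC. They also mark the cell cycle homology region, TTTGAA, and the CCAAT box, named by its letters. The windows are chr5:83077297-83077546 (plus strand) for XRCC4, chr13:108218350-108218599 (minus strand) for LIG4, chr22:41621045-41621294 (plus strand) for XRCC6 and chr10:14954097-14954346 (minus strand) for DCLRE1C.
XRCC4: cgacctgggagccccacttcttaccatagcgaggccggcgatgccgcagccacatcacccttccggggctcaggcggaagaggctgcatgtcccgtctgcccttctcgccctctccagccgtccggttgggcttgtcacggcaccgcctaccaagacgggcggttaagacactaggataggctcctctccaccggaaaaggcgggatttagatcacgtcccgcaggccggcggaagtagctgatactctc
LIG4: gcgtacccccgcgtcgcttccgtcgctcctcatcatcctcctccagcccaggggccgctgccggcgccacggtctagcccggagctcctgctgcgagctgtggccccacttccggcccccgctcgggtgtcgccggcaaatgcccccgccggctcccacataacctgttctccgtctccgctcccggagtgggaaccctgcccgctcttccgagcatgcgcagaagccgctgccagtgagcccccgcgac
XRCC6: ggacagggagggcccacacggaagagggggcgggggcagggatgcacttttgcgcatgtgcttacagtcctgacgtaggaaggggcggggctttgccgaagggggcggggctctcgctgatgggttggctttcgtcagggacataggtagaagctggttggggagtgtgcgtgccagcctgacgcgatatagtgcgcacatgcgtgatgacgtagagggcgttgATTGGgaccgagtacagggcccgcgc
DCLRE1C: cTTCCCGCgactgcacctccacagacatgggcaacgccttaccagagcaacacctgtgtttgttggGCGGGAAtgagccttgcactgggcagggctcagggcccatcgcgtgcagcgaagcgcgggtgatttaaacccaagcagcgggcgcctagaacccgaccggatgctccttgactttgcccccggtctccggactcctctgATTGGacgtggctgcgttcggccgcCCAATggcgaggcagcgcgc
The printed XRCC4 and LIG4 windows hold none of these letters, while windows of 2 other LIG4 starts each hold a CCAAT box. The XRCC6 window holds a CCAAT box on the opposite strand, 26 to 22 bases before the start. The printed DCLRE1C window holds 2 matches to TTCCCGC and 2 CCAAT boxes. Its other window, chr10:14954433-14954682, holds 2 CCAAT boxes and no E2F core. The RIF1 window, not printed, holds TTTGAA and a CCAAT box, and that of TP53BP1 a CCAAT box. Of 35116 RefSeq windows of the same length, 10.9% hold an E2F core, 13.3% TTTGAA and 32.01% a CCAAT box. LIG4, DCLRE1C and NHEJ1 have further RefSeq starts. A match describes letters only.

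Transcripts of the end recognition genes were lower throughout. XRCC6 (ENSG00000196419, chromosome 22, 41621119 to 41664048 on GRCh38, plus strand), the Ku70 subunit, had normalized counts of 16307, 14262 and 13214 in controls 1 to 3 and of 8871, 9276 and 9217 in CPT-11 samples 1 to 3. Every treated library was below every control, and the treated libraries lay closer together than the controls. The means were 14594 ± 1573 and 9121 ± 219 (SD, n = 3), a log2 fold change of -0.67 (SE 0.09, limma adjusted p = 7.75e-06). Of 5 pseudogenes named after XRCC6 in the annotation, 1 had a row, with 6 reads over the 6 libraries.

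XRCC5 (ENSG00000079246, chromosome 2, 216107464 to 216206303, plus strand), the Ku80 subunit whose tail docks DNA-PKcs, had 13842, 11885 and 11634 normalized counts in controls and 6589, 7643 and 7492 after CPT-11. Again the groups did not overlap, with control 1 highest and CPT-11 sample 1 lowest. The means were 12454 ± 1209 and 7241 ± 570.1 (SD, n = 3), a log2 fold change of -0.78 (SE 0.09, limma adjusted p = 2.00e-06).

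PRKDC (ENSG00000253729, chromosome 8, 47773108 to 47960183, minus strand), the kinase that binds DNA-loaded Ku and holds ends together, had 16675, 15527 and 15662 normalized counts in controls and 8000.4, 8682 and 8933 after CPT-11. Controls differed among themselves by far less than they differed from the treated libraries. The means were 15954 ± 628 and 8538 ± 482 (SD, n = 3), a log2 fold change of -0.90 (SE 0.08, limma adjusted p = 9.38e-08). The 9 genes together took 2941 ± 195.7 CPM in controls and 1813 ± 75.4 CPM (SD, n = 3) after CPT-11. XRCC6, XRCC5 and PRKDC supplied 87.9% to 88.7% of that sum in controls and 84.6% to 85.4% in treated libraries.

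For end trimming, DCLRE1C (ENSG00000152457, chromosome 10, 14897359 to 14954432, minus strand) encodes Artemis, the nuclease that opens hairpins and cuts overhangs once DNA-PKcs activates it. It had 300.003, 282 and 266 normalized counts in controls and 197, 188 and 204 after CPT-11. The groups did not overlap, and the treated libraries were nearly equal. The means were 283 ± 17.0 and 196.4 ± 7.79 (SD, n = 3), a log2 fold change of -0.52 (SE 0.13, limma adjusted p = 0.00276). Its exons share 159 bases, 2.51% of their length, with SUV39H2 on the other strand.

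The transcripts of the ligation complex divided. XRCC4 (ENSG00000152422, chromosome 5, 83077498 to 83353787, plus strand), which wraps and stabilises ligase IV, had 634, 609.8 and 584 normalized counts in controls and 166, 302 and 247 after CPT-11. All treated libraries were far below the controls, and CPT-11 sample 1 was the lowest. The means were 609 ± 25.2 and 238 ± 68.5 (SD, n = 3), a log2 fold change of -1.39 (SE 0.17, limma adjusted p = 1.99e-06). The log2 fold change was -1.12 without the libraries numbered 1. In the authors' deposited table XRCC4 has a log2 fold change of -1.36, with an adjusted p of 1.71e-13.

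LIG4 (ENSG00000174405, chromosome 13, 108207439 to 108218368, minus strand), the ligase of this route, had 589, 493 and 469.6 normalized counts in controls and 647, 901 and 881 after CPT-11. The groups did not overlap, but the highest control and the lowest treated library, both numbered 1, were close. The means were 517 ± 63.2 and 809.7 ± 141 (SD, n = 3), a log2 fold change of 0.64 (SE 0.13, limma adjusted p = 0.000618). Without the libraries numbered 1 the log2 fold change was 0.89. The authors' deposited table gives LIG4 a log2 fold change of 0.65, with an adjusted p of 5.44e-05.

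NHEJ1 (ENSG00000187736, chromosome 2, 219075317 to 219160865, minus strand), which encodes XLF, the filament partner of XRCC4, had 11, 4 and 6 reads in controls and 8, 8 and 10 after CPT-11. The groups overlapped, and its mean fell short of the 10 normalized counts needed to enter the test. Of its 3109 exonic bases 2034, or 65.4%, also lie in exons of AC068946.1, a protein-coding gene on the same strand that runs through NHEJ1. That left 1075 bases that reads could assign to NHEJ1 alone. AC068946.1 had 42.0, 28.9 and 41.5 normalized counts in controls and 39.7, 33.4 and 42.1 after CPT-11, with no difference passing the test (log2 fold change 0.05, 95% interval -0.51 to 0.61, limma adjusted p = 0.897). The handling of reads on shared exons is unstated in these sources, so the low NHEJ1 count is uncertain as a level of its transcript. In the authors' deposited table NHEJ1 has a log2 fold change of 0.29 and an adjusted p of 0.843.

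Of 53BP1 and its effector, RIF1 fell and TP53BP1 did not pass the test. TP53BP1 (ENSG00000067369, chromosome 15, 43403061 to 43510728, minus strand), the chromatin reader that shields ends, had 1725, 1580.3 and 1759.6 normalized counts in controls and 1522, 1346 and 1575 after CPT-11. The highest treated library lay just under the lowest control, so the groups did not overlap, as was so for 56.6% of tested genes. The means were 1688 ± 95.1 and 1481 ± 119.7 (SD, n = 3). The log2 fold change of -0.19 (SE 0.09, 95% interval -0.39 to 0.01) had a limma adjusted p of 0.103. The interval reaches no further than a fall of 0.39 on the log2 scale. Of its exonic bases 28.7% also lie in exons of TUBGCP4 on the other strand, whose count fell (log2 fold change -0.46, limma adjusted p = 0.00136). The sources used here do not give the strand setting of the counting, so these reads cannot be told apart.

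RIF1 (ENSG00000080345, chromosome 2, 151409883 to 151508013, plus strand), which 53BP1 recruits to block resection and which also sets replication timing, had 2840.0, 2359 and 2481 normalized counts in controls and 1464, 1766 and 1737 after CPT-11. The lowest control was well above the highest treated library. The means were 2560.0 ± 250.01 and 1656 ± 166 (SD, n = 3), a log2 fold change of -0.63 (SE 0.10, limma adjusted p = 5.13e-05). RIF1 shares 0.914% of its exonic bases with NEB on the other strand.

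Per length, the order of levels changed in the middle of the range. In normalized counts per kb of exonic length, XRCC6 stood highest in controls at 4439 ± 478, followed by XRCC5 at 2280 ± 221 (SD, n = 3). PRKDC came next at 1035 ± 40.7 and XRCC4 at 228 ± 9.40 per kb. RIF1 (141 ± 13.8), TP53BP1 (129.96 ± 7.32) and LIG4 (118 ± 14.4) followed, and the ranges of RIF1 and TP53BP1, and of TP53BP1 and LIG4, overlapped. DCLRE1C was at 44.7 ± 2.69 and NHEJ1 last at 2.24 ± 1.14. After CPT-11 the first 3 places were held by the same genes, at 2774 ± 66.6, 1326 ± 104 and 554 ± 31.3 per kb. LIG4 then followed at 185 ± 32.2, above TP53BP1 at 114 ± 9.22. RIF1 (91.2 ± 9.16) and XRCC4 (89.0 ± 25.6) had overlapping ranges, and DCLRE1C (31.0 ± 1.23) and NHEJ1 (2.75 ± 0.57) were again last. The place of TP53BP1 is uncertain in both groups, since 28.7% of its exonic bases also lie in exons of TUBGCP4.

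**Figure D2:**
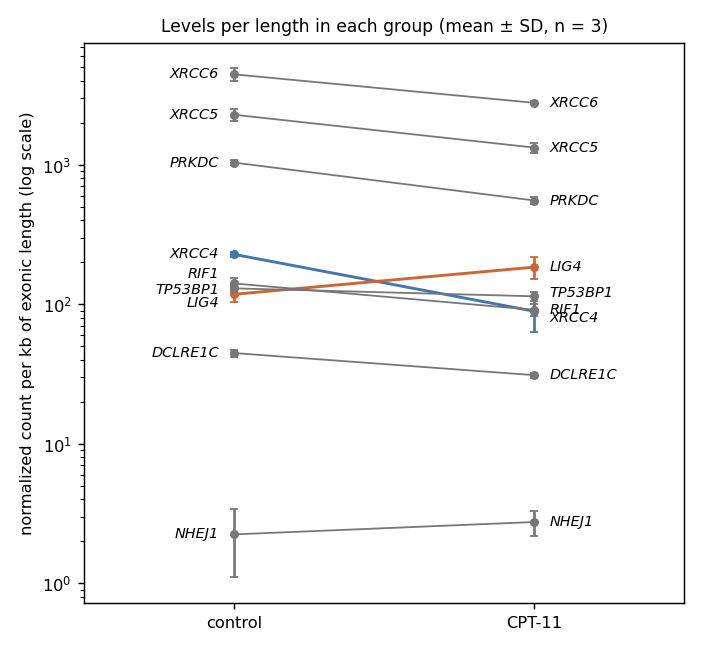
Mean normalized count per kb of exonic length (log axis) of each gene in controls and after CPT-11, with SD over 3 libraries. The lines of XRCC4 (blue) and LIG4 (orange) cross: XRCC4 goes from 228 to 89.0 per kb and LIG4 from 118 to 185. The NHEJ1 and TP53BP1 levels are uncertain because of shared exons.

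The ratios of partner genes, each per kb, were compared over the libraries in 5 pairs with a two-sided exact permutation test. With 3 libraries against 3 the smallest p this test allows is 0.1, and all 5 pairs gave 0.1 (0.1 after adjustment over the pairs), so none can pass. The XRCC4 to LIG4 ratio was 1.76, 2.03 and 2.04 in controls and 0.42, 0.55 and 0.46 after CPT-11, a change of -2.03 on the log2 scale. XRCC4 thus went from above LIG4 in each control to below it in each treated library. The XRCC5 to XRCC6 ratio, which compares the subunits of the Ku ring, was 0.51, 0.50 and 0.53 in controls and 0.45, 0.50 and 0.49 after CPT-11, a change of -0.11. The groups stood apart by a small margin, with both genes lower. The RIF1 to TP53BP1 ratio went from 1.08 ± 0.09 to 0.80 ± 0.13 (SD, n = 3), a change of -0.44. Its level is uncertain because of the TP53BP1 exons shared with TUBGCP4. The DCLRE1C to PRKDC ratio went from 0.043 ± 0.002 to 0.056 ± 0.004 (SD, n = 3), a change of 0.38. The ratio of NHEJ1 to XRCC4 rests on the 4 to 11 reads per library of NHEJ1 and is not described further.

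The members differ in the stretch of genome they span, and the fold change varied with it. XRCC4 spans 276 kb in 9 merged exons for 2676 exonic bases, and PRKDC spans 187 kb in 87. LIG4, the member that rose, spans 10.9 kb in 4, and XRCC6, which fell, spans 42.9 kb in 13. Over the 8 tested members Pearson's r between log10 span and log2 fold change was -0.88 and Spearman's rho -0.69, a description over genes that share the same 6 libraries. Neither was computed without LIG4, the shortest member and the only one that rose. Among all tested protein-coding genes the median log2 fold change was 0.15 at 10 to 30 kb, -0.01 at 30 to 100 kb, -0.34 at 100 to 300 kb and -1.08 at 300 kb or more. XRCC4 and PRKDC fell further than the lower quartile of their class, which was -0.70. TP53BP1, at 108 kb, lay above the median of its class. LIG4 lay above the upper quartile of its class, 0.47, and XRCC6, XRCC5, DCLRE1C and RIF1 lay below the lower quartile of theirs, -0.34.

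When the trend of log2 values with span was removed in each library, the 6 members that fell and LIG4 still passed. XRCC4 then had a log2 fold change of -0.65 (limma adjusted p = 0.00241) and PRKDC of -0.42 (adjusted p = 0.000329). XRCC6 had -0.71 and XRCC5 -0.60, RIF1 -0.45, DCLRE1C -0.50 and LIG4 0.48. TP53BP1 had 0.02 (limma adjusted p = 0.86), the reverse of its sign without this step.

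**Figure D3:**
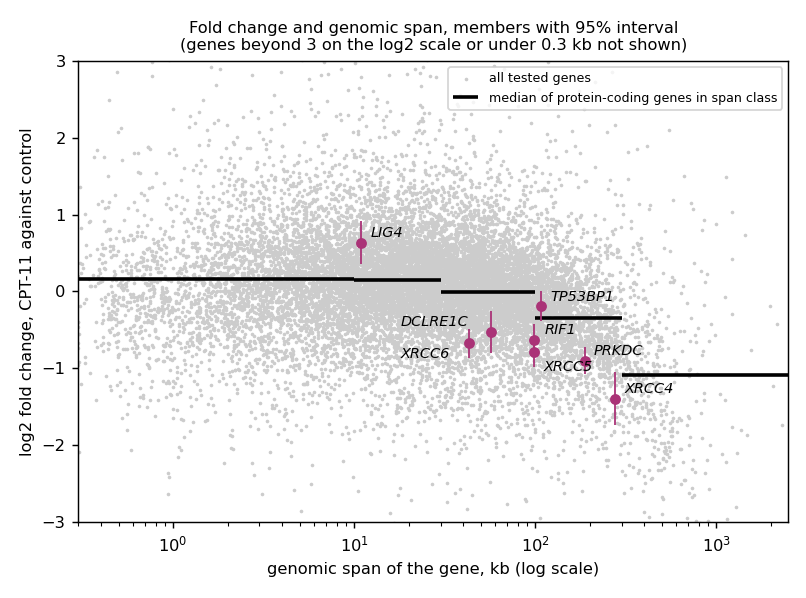
Log2 fold change (CPT-11 against control) against genomic span in kb (log axis) for all tested genes (grey), with the median of protein-coding genes in 5 span classes (black) and 8 tested members with their 95% interval (purple). XRCC4 and PRKDC, the longest members, lie under the median of their class and LIG4, the shortest, above its own.

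Several of these genes start close to a gene on the other strand, and the pairs did not all move together. PRKDC starts 2 bases from MCM4, part of the replicative helicase, and both fell; MCM4 went from 5856 ± 510.1 to 2242 ± 68.4 normalized counts (SD, n = 3), a log2 fold change of -1.38 (limma adjusted p = 9.11e-10). LIG4 starts 11 bases from ABHD13, an abhydrolase-family gene with 463, 370.2 and 365 normalized counts in controls and 445, 601 and 519.5 after CPT-11. The ABHD13 groups overlapped, and its log2 fold change of 0.38 (limma adjusted p = 0.0235) missed the threshold without control 2 (adjusted p = 0.0881), control 3 (0.101), CPT-11 sample 2 (0.151) or CPT-11 sample 3 (0.0514), and with the span trend removed (0.162). XRCC6 starts 23 bases from DESI1, a deSUMOylating protease gene, and the pair moved apart. DESI1 rose from 887 ± 97.3 to 1405 ± 41.2 normalized counts (SD, n = 3), a log2 fold change of 0.67 (limma adjusted p = 2.57e-05). The starts of XRCC4 and TMEM167A, a Golgi membrane protein gene, lie 365 bases apart and the genes overlap. TMEM167A rose from 2324 ± 135 to 3119.6 ± 237 normalized counts (SD, n = 3; log2 fold change 0.42, limma adjusted p = 0.000778), whereas XRCC4 fell. MAP1A, a microtubule-associated protein gene that starts 230 bases from TP53BP1, fell from 162 ± 9.43 to 88.3 ± 20.5 (SD, n = 3; log2 fold change -0.89, limma adjusted p = 0.000629). NEB and SUV39H2, which overlap the ends of RIF1 and DCLRE1C, fell too (-0.85 and -0.40, limma adjusted p = 0.00217 and 0.0115). The NEB call was lost with the span trend removed, and that of SUV39H2 without the libraries numbered 1.

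**Figure D4:**
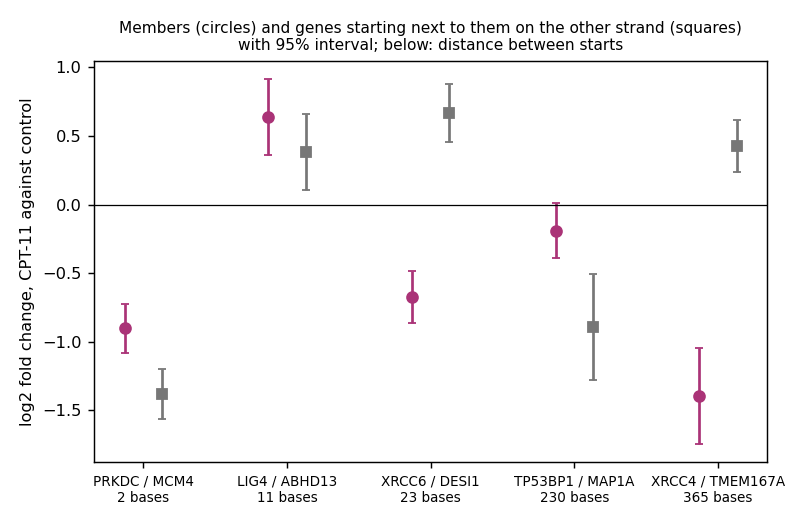
Log2 fold change (CPT-11 against control) with 95% interval of 5 members (circles) and of the gene that starts next to each on the other strand (squares), ordered by the distance between starts in bases. PRKDC and MCM4 lie on the same side of 0, as do LIG4 and ABHD13, and TP53BP1 and MAP1A; XRCC6 and DESI1, and XRCC4 and TMEM167A, lie on opposite sides.

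Around this core, 11 of 12 accessory end-joining genes were tested, and 3 rose and 4 fell. These shares, 27.3% and 36.4%, stand near the 24.3% and 25.1% of all tested genes, and the median log2 fold change was 0.02. WRN, the Werner syndrome helicase that Ku stimulates, fell from 952 ± 111 to 605 ± 24.96 normalized counts (SD, n = 3), by 0.65 on the log2 scale (limma adjusted p = 7.48e-05), and by 0.32 with the span trend removed. The gap-filling polymerases rose: POLL, polymerase lambda, went from 621 ± 56.4 to 982 ± 66.5 normalized counts (SD, n = 3; log2 fold change 0.66, limma adjusted p = 4.63e-05), and POLM, polymerase mu, had a log2 fold change of 0.45 (limma adjusted p = 0.00515). APTX, which removes adenylate left by failed ligation, rose by 0.36 (limma adjusted p = 0.00992). PAXX, an XRCC4 relative that binds Ku, fell by 0.41 (limma adjusted p = 0.00764), and ERCC6L2 by 0.28, just inside the threshold (limma adjusted p = 0.0498). In the authors' deposited table ERCC6L2 has an adjusted p of 0.0707, outside that threshold. POLM, APTX, PAXX and ERCC6L2 were named after their values were seen.

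Upstream of 53BP1, in the chromatin signal at breaks, 6 of 14 tested genes fell (42.9%, against 25.1% of all tested genes) and 2 rose (14.3%, against 24.3%); the median log2 fold change was -0.16. The number that rose was 1 without control 2, control 3, CPT-11 sample 2 or CPT-11 sample 3. H2AX, listed as H2AFX, the histone variant phosphorylated around breaks, had 2689, 4320.3 and 3783 normalized counts in controls and 1673, 1557 and 1338 after CPT-11. Its controls were widely spread, yet all lay above the treated libraries (log2 fold change -1.22, SE 0.14, limma adjusted p = 9.01e-07). MDC1, the adaptor that reads phosphorylated H2AX, fell from 1323 ± 79.3 to 702 ± 54.7 (SD, n = 3; log2 fold change -0.91, limma adjusted p = 7.03e-07). KAT5, the TIP60 acetyltransferase, fell by 0.68 (limma adjusted p = 0.00031), with 38.6% of its exonic bases also in exons on the other strand. The ubiquitin ligases RNF8 and RNF168, whose marks recruit 53BP1, did not pass (log2 fold change -0.07 and -0.21, limma adjusted p = 0.644 and 0.103).

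Behind 53BP1, in a list of its effectors and their regulators, 4 of 11 tested genes fell (36.4%, against 25.1% of all tested genes) and 1 rose (9.09%, against 24.3%), and the median log2 fold change was -0.18; TEN1, with at most 9 reads in any library and 75.4% of its exonic bases also in another gene on its strand, was not tested. TRIP13, an ATPase that remodels REV7 and so opposes shieldin, fell from 975 ± 115 to 676 ± 59.9 normalized counts (SD, n = 3; log2 fold change -0.53, limma adjusted p = 0.000771). The shieldin subunit SHLD2 fell by 0.40 (limma adjusted p = 0.00458), MAD2L2, which encodes REV7, by 0.30 (limma adjusted p = 0.0236) and PAXIP1, which encodes the 53BP1 partner PTIP, by 0.34 (limma adjusted p = 0.0124). SHLD3, a further shieldin subunit, had 45.0, 52.4 and 37.7 normalized counts in controls and 25.6, 34.4 and 36.8 after CPT-11, a log2 fold change of -0.47 that did not pass (SE 0.27, limma adjusted p = 0.152). ZNF280C, a zinc finger protein reported to restrain resection, rose by 0.46 (limma adjusted p = 0.00696), but not past the threshold without CPT-11 sample 3 (adjusted p = 0.0597). Without control 3 or CPT-11 sample 2 the number that fell was 2. When libraries were scaled without mitochondrial genes 2 fell and 2 rose.

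**Figure D5:**
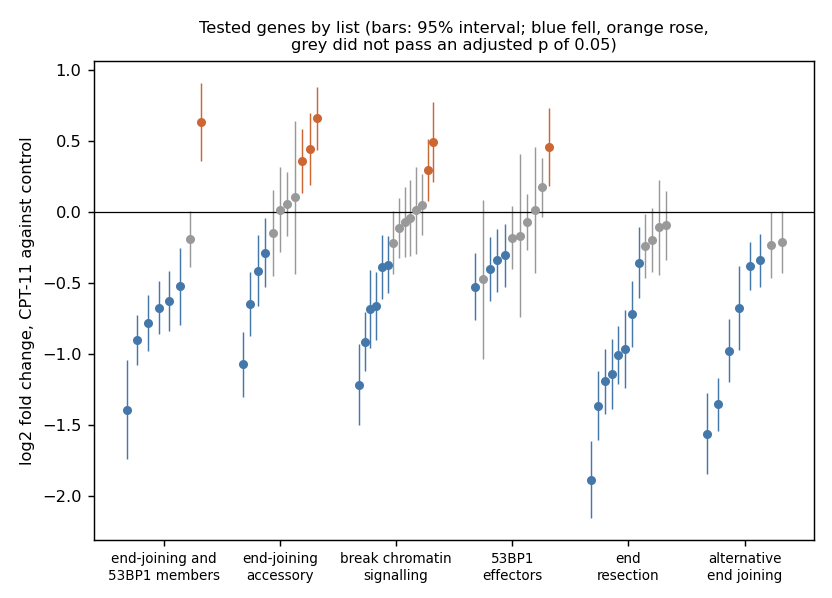
Log2 fold change (CPT-11 against control) of the tested genes of 6 lists with 95% intervals; blue genes fell, orange genes rose and grey genes did not pass a limma adjusted p of 0.05. No gene rose in end resection (12 tested) or alternative end joining (8 tested), and from 1 to 3 rose in each of the other 4 lists. Of all tested genes 24.3% rose. Differences between the lists were not tested.

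Of 12 tested genes of end resection and its promotion 8 fell (66.7%, against 25.1% of all tested genes) and 4 did not pass, and the log2 fold changes ran from -1.89 to -0.09 with a median of -0.84. BARD1 and BRCA1, the ubiquitin ligase that displaces 53BP1, fell by 1.89 (SE 0.13, limma adjusted p = 2.13e-09) and 1.19 (SE 0.11, limma adjusted p = 8.41e-08) on the log2 scale. BARD1 had 649, 655 and 529.9 normalized counts in controls and 156, 160.1 and 176 after CPT-11. BLM, a helicase of long-range resection, fell from 737 ± 75.5 to 285 ± 16.8 (SD, n = 3; log2 fold change -1.37, limma adjusted p = 3.46e-08). With the span trend removed, BARD1, BLM and BRCA1 had log2 fold changes of -1.76, -1.18 and -0.92. RBBP8, which encodes CtIP and starts resection with MRE11, fell by 0.72 (limma adjusted p = 3.76e-05). It spans 228 kb, and its fall is close to the lower quartile of genes of 100 to 300 kb, -0.70. MRE11 and RAD50, which act at the same step, did not pass (-0.09 and -0.11, limma adjusted p = 0.529 and 0.609), and 79.7% of the exonic bases of RAD50 also lie in another gene on its strand, so its count is uncertain.

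Of 8 tested genes of alternative end joining 6 fell (where 25.1% of all tested genes did) and 2 did not pass, and the log2 fold changes ran from -1.56 to -0.21 with a median of -0.53. POLQ, polymerase theta, which joins ends through short homologies, had 742, 649 and 685 normalized counts in controls and 192, 281 and 236 after CPT-11. These groups were far apart (log2 fold change -1.56, SE 0.14, limma adjusted p = 4.29e-08). FEN1, the flap nuclease, fell from 2608 ± 112 to 1019 ± 54.7 (SD, n = 3; log2 fold change -1.36, limma adjusted p = 1.41e-09), and LIG1, the ligase of replication, by 0.98 (limma adjusted p = 7.16e-07). With the span trend removed, POLQ, FEN1 and LIG1 had log2 fold changes of -1.32, -1.49 and -0.96. LIG3, the ligase of the alternative route that pairs with XRCC1, had a log2 fold change of -0.21 that did not pass (limma adjusted p = 0.102), and shares 30.5% of its exonic bases with the other strand. LIG4 was thus the DNA ligase gene that rose, beside a fall in LIG1 and no call in LIG3. Differences between these lists were not tested.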

How the data were processed

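RNA of HCT116 cells was sequenced in 3 DMSO control and 3 CPT-11 libraries; the labels give groups and replicate numbers. Per the submitters' processing notes, the tools included featureCounts 1.6.2, HISAT2 2.1.0, DESeq2 1.22.1 and fastp 0.19.3, and the build was GRCh38; no roles are given. The authors' deposited value per gene and library is a normalized count, a signal divided by 1 factor per library: in each library 100% of 30560 values were whole multiples, within 0.001 read, of the value of 1 read, which gives the read counts. Per the file headers, the same table holds the authors' log2 fold change, p-value and adjusted p-value of each gene, quoted only as theirs. Gene starts and ends equalled GENCODE release 29 for 30560 of 30560 genes, and the deposited gene length equalled the merged exons. A floor of 3 reads is 0.166 to 0.195 CPM, for counting error only.

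Since the table holds normalized values, the main test was limma 3.58.1 (R 4.3.3) with a mean-variance trend on log2(normalized count + 1), for genes with a mean of at least 10, two-sided, with Benjamini-Hochberg adjustment over all 16239 tested genes. The added 1 shrinks fold changes of genes with few reads. edgeR 4.0.16 and DESeq2 1.42.0 on recovered reads were alternatives. Other alternatives covered pseudocount, filter, scaling, span, replicate block and left-out libraries; leaving out both libraries numbered 1 was chosen after seeing the data. The pipeline was tested on simulated reads. The members and gene lists were chosen with earlier results of these data known. The text names all 9 members, the 3 tested genes with the largest absolute log2 fold change (mean of at least 1 CPM) of each of 5 pathway lists, markers, and genes that overlap or start beside a member, apart from a gene of this rule that is not reported here; RNF8, RNF168, SHLD2, MAD2L2, PAXIP1, RBBP8, MRE11, RAD50 and LIG3 were added after their values were seen. Of 95 list entries 89 had a row.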

Additional observations from a re-analysis of the deposited data

How the results depend on the processing

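The counts of members, 6 lower and 1 higher, were the same in all 18 alternatives, including edgeR, DESeq2 and the replicate block. Over the whole table the counts higher and lower were 3939 and 4083; edgeR on recovered reads called 4058 and 4021, leaving out a single library gave 3223 to 3942 higher and 3628 to 4029 lower, leaving out both libraries numbered 1 gave 4189 and 4327, and scaling without mitochondrial genes made 58.0% of calls higher, against 49.1%. Over the 32 genes of the naming rule 562 of 574 alternative values kept direction and side of the threshold. Values that changed sign were TP53BP1 with the span trend removed (0.022), and AC068946.1 without control 2 (-0.12) and without CPT-11 sample 3 (-0.02; range with a library left out -0.12 to 0.14), none past the threshold. Of genes of break chromatin signalling, 1 rather than 2 rose under the replicate block, and 1 to 2 with a library left out. Of 53BP1 effectors and regulators, 2 rather than 4 fell and 2 rather than 1 rose when scaled without mitochondrial genes; 2 fell under the replicate block, and with a library left out 2 to 4 fell and 0 to 1 rose. The cause of these shifts was not tested. The replicate numbers do not pair the samples: deviations from group means correlated at -0.59, -0.12 and -0.35 between same-numbered libraries, and the block lowered the calls over all genes to 3309 higher and 3503 lower. ABHD13 missed the threshold under the block (adjusted p = 0.0601). No ratio of partner genes changed sign. NHEJ1 and TEN1 had too few reads to test, and both share most exonic bases with another gene on the same strand.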
